A study of Homo sapiens with 8 samples.

Results

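The genes of condensin, the ring-shaped protein complex that compacts chromosomes for division, were followed through RNA of hTERT-RPE1 cells with and without immunoprecipitation (IP) of hnRNP U. The members were the rows of the gene table named for the 8 human condensin subunits: SMC2, SMC4, NCAPD2, NCAPD3, NCAPG, NCAPG2, NCAPH and NCAPH2. All 8 were found among the 13471 genes measured. hTERT-RPE1 is a human retinal pigment epithelium line kept dividing by telomerase, and hnRNP U (also named SAF-A) is an RNA- and DNA-binding protein of the nucleus. The series asks which RNAs come down with hnRNP U, and its title concerns the release of a chromosome-bound RNA in mitosis.

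The 8 libraries formed 4 groups of 2. Thymidine at 2 mM, a block to DNA replication, had been given for 24 h to all cells, those of the mitotic groups included. Interphase cells were taken at that point, so they stand for thymidine-arrested cells and not for an unperturbed interphase. Mitotic cells were instead given 6 h in medium free of thymidine and then overnight in S-trityl-L-cysteine (STLC), which blocks the spindle motor Eg5. From each phase, RNA was sequenced without IP and after IP with an anti-hnRNP U antibody (clone 3G6 by its label). Every library was depleted of ribosomal RNA, and lysates had been spun clear before use. No IP with a control antibody was analysed here, so RNA bound by hnRNP U and RNA carried over on the beads could not be told apart. Nothing in the labels ties replicates to separate cultures, so p-values measure the spread between these libraries, which may be technical.

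Condensin exists in 2 forms that share a V-shaped pair of ATPases, SMC2 and SMC4, and differ in the other 3 subunits. Condensin I carries the kleisin NCAPH, which closes the ring between the ATPase heads, and the HEAT-repeat proteins NCAPD2 and NCAPG. Condensin II carries their counterparts NCAPH2, NCAPD3 and NCAPG2. Condensin II resides in the nucleus through interphase and starts condensation in prophase, whereas condensin I is largely cytoplasmic and reaches the chromosomes once the nuclear envelope breaks down. The 2 forms together shape the mitotic chromosome, condensin II setting its axial shortening and condensin I its lateral compaction.

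Values were FPKM, fragments per kilobase of transcript scaled to the fragments mapped in the library. Levels of different genes can thus be set side by side only roughly, since base composition is not allowed for. Within each group the 2 libraries had a Pearson's r between 0.989 and 0.995 over genes (log2 scale), and genes are not independent replicates. The number of fragments per library is unknown. Whole-fragment steps among low values put depth at 0.637 to 1.19 relative to interphase replicate 1 lacking IP, with the extremes in the 2 mitotic IP libraries. The summed FPKM of 8 mRNAs of G2 and M phase, such as those of cyclin B1 and PLK1, was 137 to 147 in interphase and 603 to 641 in mitosis without IP. The sum of 8 mRNAs of the G1/S programme was 225 to 268 and 122 to 144 FPKM in the same libraries. Much of it was PCNA, at 135 and 108 FPKM in interphase and 38.2 and 59.3 FPKM in mitosis. By limma, the test used below, 5 of these 8 were called lower in mitosis and 0 higher, beside 25.5% and 26.2% of all genes. Of 8 markers of retinal pigment epithelium, the transcription factor genes MITF and OTX2 had 7.06 to 9.60 and 3.33 to 8.71 FPKM without IP. Their highest values, 33.2 and 22.2 FPKM, were in the second interphase IP library. PMEL stayed at or below 0.144 FPKM in every library. The other 5 (RPE65, RLBP1, BEST1, TYR and TTR) were not analysed here, nor were 7 of 8 markers of other cells. The remaining one, the collagen gene COL1A1, was at most 1.44 FPKM.

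The members are protein-coding genes on 8 chromosomes, given here on GRCh38 from GENCODE release 29. The shared ATPases are SMC2 on chromosome 9 (104094260 to 104141417) and SMC4 on chromosome 3 (160399274 to 160434962). Condensin I has NCAPD2 on chromosome 12 (6493356 to 6531955), NCAPG on chromosome 4 (17810902 to 17844862) and NCAPH on chromosome 2 (96335787 to 96373845). Condensin II has NCAPD3 on chromosome 11 (134150119 to 134225454), NCAPG2 on chromosome 7 (158631311 to 158704829) and NCAPH2 on chromosome 22 (50508216 to 50523472). In the file, 4 members share their interval with another gene, against 21.3% of all genes. SMC4 lies beside IFT80 on the opposite strand, with 607 shared exon bases, and NCAPG beside LCORL on the opposite strand, with 1631. NCAPD2 holds the small RNA gene SCARNA10 on its own strand, and NCAPH2 lies beside SCO2 on the opposite strand, both with 0 shared exon bases. The file's interval of SMC4 spans 177977 bases (annotated gene 35689), that of NCAPG 211049 (33961) and that of NCAPH2 21871 (15257). That of NCAPD2 spans 37836 bases (annotated gene 38600). Libraries were made with a strand-marking kit, but whether counting used strand is not given in the sources used here. Values of these 4 members are therefore less certain than those of SMC2, NCAPH, NCAPD3 and NCAPG2, whose intervals hold no other gene.

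In arrested interphase without IP the subunit mRNAs spread from a mean of 22.1 FPKM for SMC4 to 4.47 FPKM for NCAPH. SMC4 had 25.7 and 18.5 FPKM in replicates 1 and 2, and its partner ATPase SMC2 had 8.10 and 6.10 FPKM. Of the HEAT-repeat genes of condensin I, NCAPD2 had 17.7 and 19.4 FPKM and NCAPG 16.6 and 13.2 FPKM. The kleisin NCAPH was the lowest member at 4.51 and 4.43 FPKM. In condensin II, NCAPG2 had 19.6 and 17.6 FPKM, NCAPH2 12.1 and 12.2 FPKM, and NCAPD3 4.77 and 5.20 FPKM. From high to low the means ran SMC4, NCAPG2, NCAPD2, NCAPG, NCAPH2, SMC2, NCAPD3 and NCAPH. Replicate values of SMC4 overlapped those of NCAPG2, and those of NCAPG2 overlapped those of NCAPD2. The members thus sat between percentiles 40.0 (NCAPH) and 78.1 (SMC4) of all genes in that group.

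**Figure D1:**
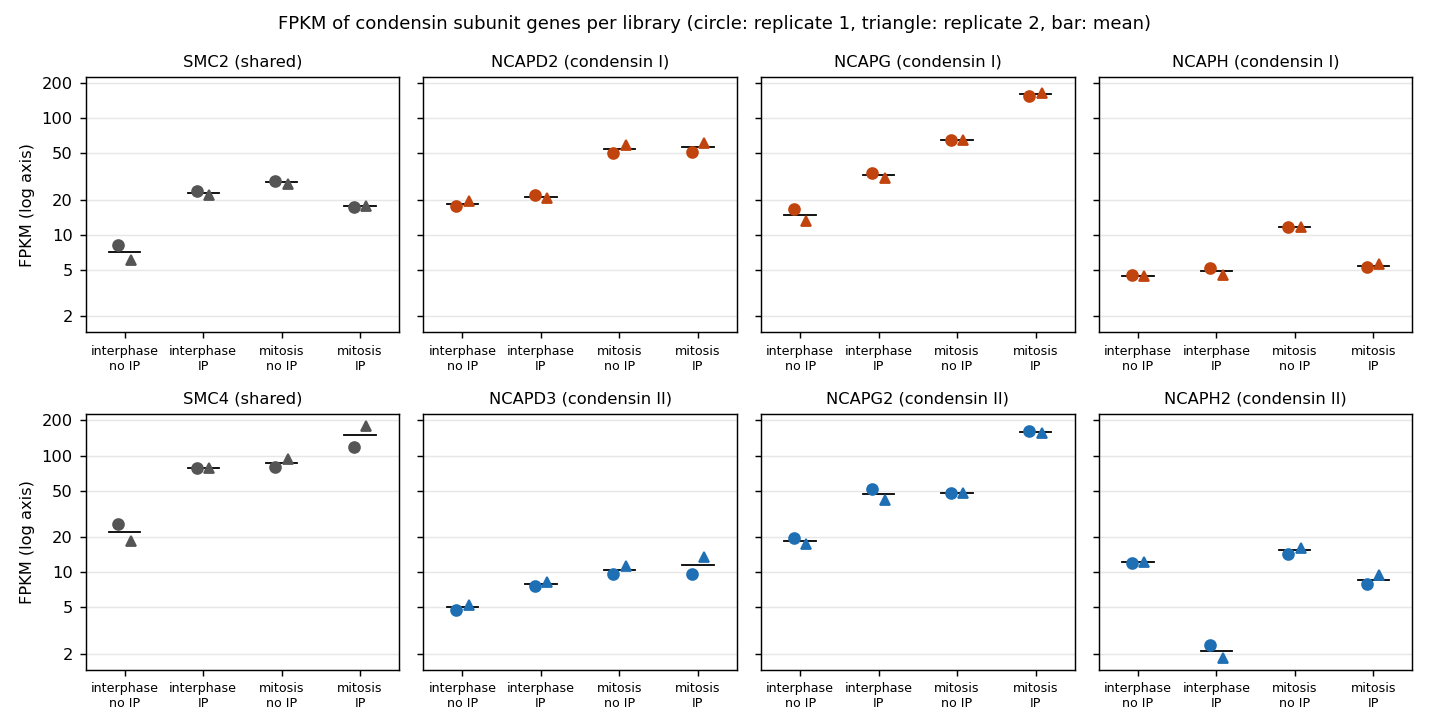
FPKM (log axis) of each condensin subunit gene in the 8 libraries, with interphase and mitosis on the horizontal axis, each without IP and with hnRNP U IP; circles and triangles are replicates 1 and 2 and bars are group means. Without IP each gene is higher in both mitotic libraries than in both interphase ones, and SMC2 and NCAPH fall back in the mitotic IP while NCAPG and NCAPG2 climb to about 160 FPKM (means of 159.7 and 159.1).

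Without IP, condensin mRNAs were higher in mitosis than in arrested interphase, the most so for NCAPG, SMC4 and SMC2. By limma with Benjamini-Hochberg adjustment over all genes, 7 of the 8 members were called higher at an adjusted p below 0.05 and 0 lower. Of all genes, 51.7% were called, 26.2% higher and 25.5% lower. Both mitotic libraries lay above both interphase libraries for 8 of the 8 members, as they did for 39.5% of all genes, while 39.4% of genes had the reverse order. The eighth, NCAPH2, missed the threshold. The median log2 fold change of the members was 1.41, beside -0.00 over all genes. In bulk RNA, more cells expressing a gene and more RNA per cell cannot be told apart.

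Both ATPase genes rose. SMC2 rose from 8.10 and 6.10 FPKM to 28.8 and 27.5 FPKM, a log2 fold change of 1.86 (SE 0.13, limma adjusted p 1.51e-05). SMC4 rose from 25.7 and 18.5 FPKM to 80.4 and 93.9 FPKM, a log2 fold change of 1.95 (SE 0.21, limma adjusted p 0.000145). For both genes the mitotic libraries lay well above the interphase ones. IFT80, whose exons partly overlap SMC4, was not called (log2 fold change 0.11, limma adjusted p 0.419), at 16.2 and 13.6 FPKM in interphase and 15.7 and 16.4 FPKM in mitosis.

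In condensin I, NCAPG showed the largest change of any member. It went from 16.6 and 13.2 FPKM to 64.6 and 65.6 FPKM, a log2 fold change of 2.07 (SE 0.12, limma adjusted p 7.03e-06), at percentile 99.2 of all genes. The overlapping gene LCORL had a log2 fold change of 0.93 in the same comparison. NCAPD2 rose from 17.7 and 19.4 FPKM to 50.1 and 59.5 FPKM, and the kleisin NCAPH from 4.51 and 4.43 FPKM to 11.8 and 11.6 FPKM. Their log2 fold changes were 1.51 (SE 0.13) and 1.21 (SE 0.11), with limma adjusted p-values of 4.42e-05 and 7.06e-05. SCARNA10, which lies inside NCAPD2 on the same strand, went from 291.8 and 421.9 FPKM to 1373 and 2110 FPKM, a log2 fold change of 2.27 (limma adjusted p 0.00186), and its part in the NCAPD2 value was not tested. Replicates of NCAPH lay close together, with SDs of 0.0560 FPKM in interphase and 0.131 FPKM in mitosis (n = 2).

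Condensin II had smaller fold changes. NCAPG2 rose from 19.6 and 17.6 FPKM to 47.5 and 47.9 FPKM, a log2 fold change of 1.32 (SE 0.12, limma adjusted p 6.33e-05). NCAPD3, the HEAT-repeat subunit that answers to NCAPD2, rose from 4.77 and 5.20 FPKM to 9.67 and 11.4 FPKM, a log2 fold change of 0.94 (SE 0.16, limma adjusted p 0.00134). NCAPH2 had 12.1 and 12.2 FPKM in interphase and 14.5 and 16.2 FPKM in mitosis. Its groups did not overlap, but its log2 fold change of 0.31 (95% interval 0.01 to 0.62) carried a limma adjusted p of 0.0774. With trends on transcript length and GC content taken off each library it was 0.68 with an adjusted p of 0.00205 (range over 16 alternatives 0.00167 to 0.304). SCO2, the neighbour of NCAPH2, went the other way, with a log2 fold change of -1.66.

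In each matched pair of subunits the condensin I gene had a larger log2 fold change than its condensin II counterpart. The log2 fold change of NCAPD2 exceeded that of NCAPD3 by 0.57, with 0.56 and 0.57 in replicates 1 and 2. NCAPG exceeded NCAPG2 by 0.75 (0.66 and 0.84), and NCAPH exceeded NCAPH2 by 0.90 (0.97 and 0.82). The 95% intervals of NCAPG (1.79 to 2.35) and NCAPG2 (1.05 to 1.58) did not overlap, nor did those of NCAPH (0.96 to 1.46) and NCAPH2 (0.01 to 0.62). Those of NCAPD2 (1.22 to 1.80) and NCAPD3 (0.58 to 1.30) did, but overlap of intervals is no test of a difference. With the length and GC trends taken off, NCAPD2 had 1.40 and NCAPD3 0.81. NCAPG and NCAPG2 then had 1.86 and 1.10, and NCAPH and NCAPH2 had 1.24 and 0.68. Averaged over the 3 subunits with the trends left in, the log2 fold change of condensin I exceeded that of condensin II by 0.74. It was 0.73 and 0.75 in replicates 1 and 2, a description without a test. In FPKM, the summed condensin I subunits were 1.07 and 1.06 times the summed condensin II subunits in interphase and 1.76 and 1.81 times in mitosis.

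**Figure D2:**
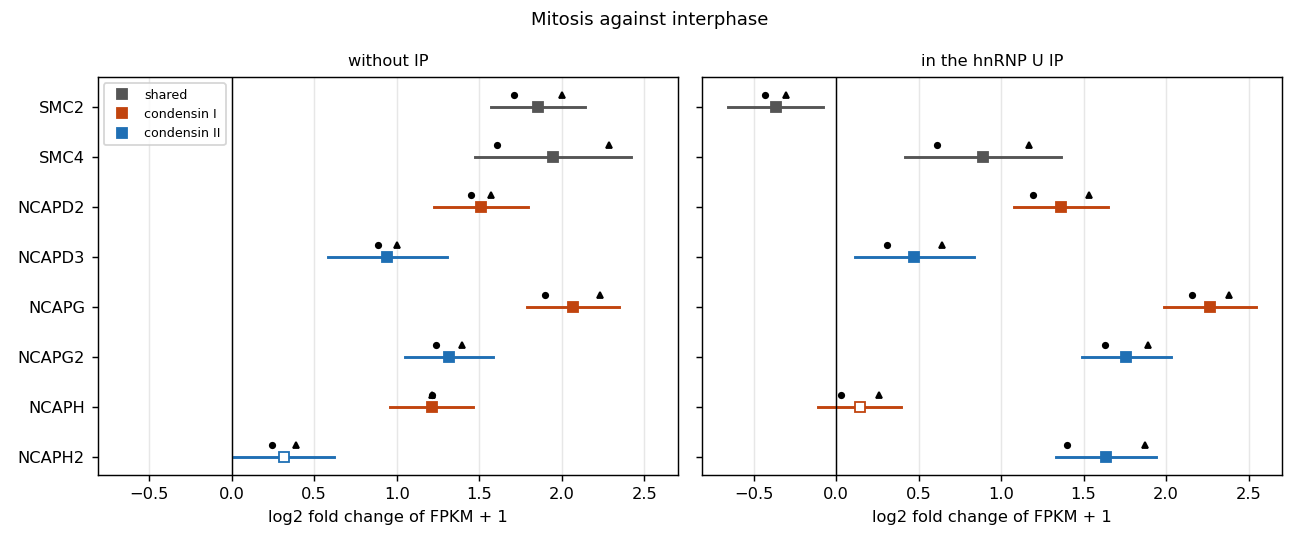
Log2 fold change (of FPKM + 1) of mitosis against interphase for each member, without IP on the left and within the hnRNP U IP on the right; squares and lines are limma estimates with 95% intervals, filled where called, and small circles and triangles are the values of replicates 1 and 2. Without IP the orange condensin I genes lie to the right of their blue condensin II counterparts, while in the IP SMC2 lies at -0.37 and NCAPH2 at 1.64.

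Since 7 of the 8 members were called higher in mitosis without IP, their promoters are shown. RefSeq windows of 300 bases (250 before to 50 after the annotated start, GRCh38.p14) were found for 7 of the 8 members, NCAPH2 being the one not matched. They were searched on both strands for CCAAT, the letters bound by NF-Y, and for TTTGAA and TTTAAA. The last 2 are the letters of the CHR element, through which the DREAM and MuvB complexes act on many genes of G2 and M phase. For each of the 7 genes a window held TTTGAA or TTTAAA, against 24.0% of 35116 windows of that length in the table. CCAAT was found for 3 of the 7 (NCAPD2, NCAPH and NCAPD3), against 34.6% of windows. These shares are per window and the member counts per gene, so they are not like for like. SMC2, SMC4 and NCAPD3 have a further annotated start, and the windows at those starts held none of these letters. The windows of 200 bases printed here, from 150 before the start to 50 after it and read 5′ to 3′ on the gene's strand, are those of SMC2, whose IP effect changed most between phases, and of the HEAT-repeat pairs. They lie, on GRCh38.p14, with SMC2 at chr9:104094159-104094358 on the plus strand, NCAPD2 at chr12:6493952-6494151 on the plus strand, NCAPD3 at chr11:134223918-134224117 on the minus strand, NCAPG at chr4:17810829-17811028 on the plus strand and NCAPG2 at chr7:158704755-158704954 on the minus strand. Capitals mark these letters on either strand, so that CCAAT on the reverse strand reads ATTGG, and TTTGAA there reads as TTCAAA. Where a gene had several starts, the first inside its interval in the file was taken.
SMC2: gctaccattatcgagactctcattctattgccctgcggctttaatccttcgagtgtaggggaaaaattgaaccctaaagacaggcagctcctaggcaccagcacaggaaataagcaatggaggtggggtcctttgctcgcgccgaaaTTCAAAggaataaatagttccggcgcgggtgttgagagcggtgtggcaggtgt
NCAPD2: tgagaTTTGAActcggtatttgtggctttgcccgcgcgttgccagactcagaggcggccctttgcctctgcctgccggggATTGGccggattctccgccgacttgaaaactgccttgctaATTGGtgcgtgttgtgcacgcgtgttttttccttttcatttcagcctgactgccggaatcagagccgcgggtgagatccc
NCAPD3: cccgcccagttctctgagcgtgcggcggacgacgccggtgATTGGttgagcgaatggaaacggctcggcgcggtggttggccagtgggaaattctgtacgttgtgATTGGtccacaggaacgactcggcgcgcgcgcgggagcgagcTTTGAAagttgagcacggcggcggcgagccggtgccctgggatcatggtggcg
NCAPG: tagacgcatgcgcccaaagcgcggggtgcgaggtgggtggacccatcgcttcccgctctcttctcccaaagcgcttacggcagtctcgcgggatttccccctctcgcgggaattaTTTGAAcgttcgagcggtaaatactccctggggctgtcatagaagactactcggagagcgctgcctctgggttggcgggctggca
NCAPG2: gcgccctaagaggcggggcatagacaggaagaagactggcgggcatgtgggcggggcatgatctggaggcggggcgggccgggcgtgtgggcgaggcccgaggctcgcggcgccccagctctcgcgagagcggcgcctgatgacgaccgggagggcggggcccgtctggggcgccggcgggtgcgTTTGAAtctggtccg

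Relative to the annotated start, the first base of the match lay at -3 in SMC2 and NCAPD3 and at -35 in NCAPG. In NCAPG2 it lay at 35, inside the transcribed part. NCAPD2 had its match at -145 and CCAAT at 4 places, of which those at -70 and -30 fall in the printed window and those at -199 and -170 before it. In NCAPD3 the CCAAT letters lay at -110 and -45. The matched letters are a description of these windows, and no binding was measured.

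In the interphase IP the subunit mRNAs went in different directions. The share of members called in either direction was close to that of all genes. The ATPase genes and both G subunits were higher in the IP than without it, NCAPD3 moderately so, and the condensin II kleisin NCAPH2 was much lower. With the length and GC trends taken off, the calls of SMC2, NCAPG, NCAPG2 and NCAPD3 were lost and those of SMC4 and NCAPH2 held, with values given beside base composition. Limma called 6 of the 8 members, 5 higher and 1 lower. Of all genes 74.6% were called, 37.6% higher and 37.0% lower. The IP libraries lay above those without IP for 7 members and below for 1, against 44.5% and 42.8% of all genes. The median log2 fold change of the members was 0.83, and that of all genes was 0.02.

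SMC2 had 8.10 and 6.10 FPKM without IP and 23.7 and 22.1 FPKM in the IP, a log2 fold change of 1.57 (SE 0.13, limma adjusted p 5.35e-06). SMC4 had 25.7 and 18.5 FPKM without IP and 77.5 and 78.9 FPKM in the IP, a log2 fold change of 1.80 (SE 0.21, limma adjusted p 4.88e-05). The authors' deposited table gives the same quotients without a pseudocount, 2.93 and 3.62 for SMC2 and 3.01 and 4.27 for SMC4. IFT80, which overlaps SMC4, had a log2 fold change of 1.89, so a contribution of its reads to the SMC4 value was not tested.

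NCAPG rose from 16.6 and 13.2 to 34.0 and 30.8 FPKM, and NCAPG2 from 19.6 and 17.6 to 51.3 and 41.8 FPKM. Their log2 fold changes were 1.08 (SE 0.12) and 1.27 (SE 0.12), with limma adjusted p-values of 4.17e-05 and 1.21e-05. LCORL, which overlaps NCAPG, had 1.88 (limma adjusted p 1.13e-06), and a contribution of its reads was not tested. NCAPD3 rose from 4.77 and 5.20 to 7.56 and 8.22 FPKM, a log2 fold change of 0.57 (SE 0.16, limma adjusted p 0.00928). This call was lost without the first interphase library lacking IP (0.52, adjusted p 0.0541) or without the second interphase IP library (0.52, adjusted p 0.0522). Over all 16 alternatives its adjusted p ran from 0.00206 to 0.320.

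The remaining condensin I subunits did not pass the test. NCAPD2 had 17.7 and 19.4 FPKM without IP and 21.9 and 20.6 FPKM in the IP, a log2 fold change of 0.19 with a 95% interval of -0.10 to 0.47 (limma adjusted p 0.207). SCARNA10, inside NCAPD2, had -1.44 (limma adjusted p 0.0102), and its part in the NCAPD2 value was not tested. NCAPH had 4.51 and 4.43 FPKM without IP and 5.15 and 4.56 FPKM in the IP, a log2 fold change of 0.10 with an interval of -0.16 to 0.35 (limma adjusted p 0.457). After quantile normalization NCAPH reached 0.30 with an adjusted p of 0.0255, in a range of 0.0255 to 0.879 over its alternatives.

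NCAPH2 stood at the other end. It fell from 12.1 and 12.2 FPKM without IP to 2.36 and 1.83 FPKM in the IP, a log2 fold change of -2.09 (SE 0.13, limma adjusted p 1.61e-06). The authors' deposited table gives quotients of 0.196 and 0.151. NCAPH2 thus lay at percentile 6.32 of all genes and SMC4 at percentile 97.4. SCO2, beside NCAPH2 on the opposite strand and without shared exon bases, had a log2 fold change of -2.52. Between the kleisins, NCAPH exceeded NCAPH2 by 2.18 on the log2 scale (2.12 and 2.25 in replicates 1 and 2). The D and G pairs had smaller gaps of the other sign, -0.38 (-0.28 and -0.49) and -0.19 (-0.35 and -0.03). The higher mean of condensin I in this comparison, by 0.54, therefore came from the kleisin pair.

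In mitosis the members called higher and lower in the IP were partly others than in interphase. Their shares were near those of all genes. With the length and GC trends taken off, the calls of SMC4 and NCAPH2 were lost, with values given below. NCAPG and NCAPG2 were strongly higher in the IP and SMC4 less so, whereas SMC2, NCAPH and NCAPH2 were lower. Limma called 6 of the 8 members, 3 higher and 3 lower. Of all genes 64.5% were called, 32.8% higher and 31.7% lower. The same 3 and 3 members had groups that did not overlap, against 41.4% of all genes above and 40.1% below. The median log2 fold change of the members was 0.07, and that of all genes 0.01.

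NCAPG2 had 47.5 and 47.9 FPKM without IP and 161 and 157 FPKM in the IP. Its log2 fold change of 1.72 (SE 0.12, limma adjusted p 9.06e-06) placed it at percentile 98.9 of all genes. NCAPG had 64.6 and 65.6 FPKM without IP and 155 and 164 FPKM in the IP, a log2 fold change of 1.28 (SE 0.12, limma adjusted p 3.15e-05). LCORL, which overlaps NCAPG, had 0.99 (limma adjusted p 7.64e-05). These counterparts of the different complexes thus reached nearly the same level in the mitotic IP, with overlapping replicate values.

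SMC4 had 80.4 and 93.9 FPKM without IP and 119 and 179 FPKM in the IP, the widest replicate spread of any member. Its log2 fold change of 0.74 (SE 0.21, limma adjusted p 0.0121) did not hold without the first mitotic library lacking IP (0.63, adjusted p 0.0726) or without the second mitotic IP library (0.45, adjusted p 0.0803). With the length and GC trends taken off it was 0.05, and its adjusted p ran from 0.00232 to 0.817 over the alternatives. IFT80, which overlaps SMC4, had a log2 fold change of 1.74 here.

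SMC2 fell from 28.8 and 27.5 FPKM without IP to 17.3 and 17.8 FPKM in the IP, a log2 fold change of -0.65 (SE 0.13, limma adjusted p 0.00173). NCAPH fell from 11.8 and 11.6 to 5.26 and 5.65 FPKM, a log2 fold change of -0.97 (SE 0.11, limma adjusted p 8.03e-05). Neither interval in the file holds another gene. NCAPH2 fell from 14.5 and 16.2 to 7.88 and 9.38 FPKM, a log2 fold change of -0.77 (SE 0.13, limma adjusted p 0.000917). Its neighbour SCO2 had a log2 fold change of -0.71 (limma adjusted p 0.00291), and a contribution of its reads was not tested. With the length and GC trends taken off, that of NCAPH2 was -0.12 with an adjusted p of 0.443, in a range of 0.000464 to 0.443.

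The large D subunits did not pass the test in the mitotic IP. NCAPD2 had 50.1 and 59.5 FPKM without IP and 51.2 and 61.5 FPKM in the IP, a log2 fold change of 0.04 with a 95% interval of -0.25 to 0.33 (limma adjusted p 0.801). SCARNA10, inside NCAPD2 on the same strand, had -2.89 (limma adjusted p 0.000265), and its part in the NCAPD2 value was not tested. NCAPD3 had 9.67 and 11.4 FPKM without IP and 9.60 and 13.4 FPKM in the IP, a log2 fold change of 0.10 with an interval of -0.26 to 0.46 (limma adjusted p 0.597). For both D subunit genes the groups overlapped.

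**Figure D3:**
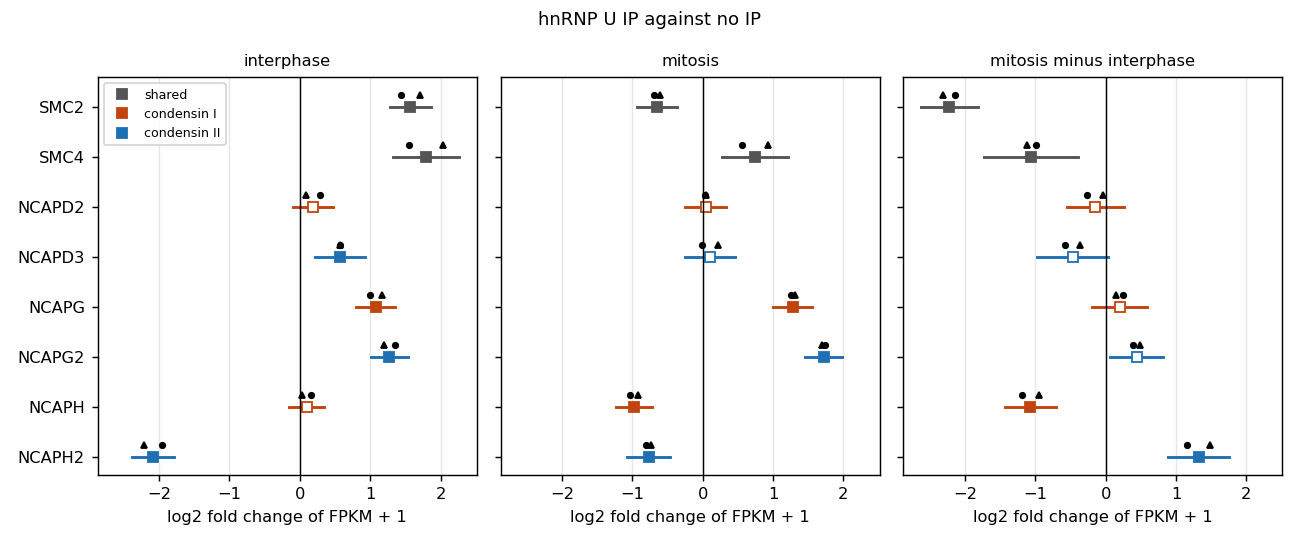
Log2 fold change (of FPKM + 1) of hnRNP U IP against no IP for each member in interphase, in mitosis, and as the difference between them; squares and lines are limma estimates with 95% intervals, filled where called, and small circles and triangles are the values of replicates 1 and 2. SMC2 changes side from 1.57 to -0.65, NCAPG and NCAPG2 stay on the right in both phases, and NCAPH2 stays on the left.

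Whether the effect of the IP differed between the phases was tested as an interaction in the same fit. It was called for 4 of the 8 members, 3 with a lower log2 fold change in mitosis (SMC2, NCAPH and SMC4) and 1 with a higher one (NCAPH2). Of all genes, 47.1% were called, 19.9% lower and 27.2% higher in mitosis (2677 and 3662 genes, or 3354 and 3209 under quantile normalization). SMC2 had the largest change of effect, -2.22 (SE 0.18, limma adjusted p 6.95e-05), with -2.14 and -2.30 in replicates 1 and 2, at percentile 0.438 of all genes. It was also the only member called higher in the interphase IP and lower in the mitotic IP, a combination met by 3.73% of all genes. With the length and GC trends taken off, its interphase call was lost (0.26, adjusted p 0.122, range over the alternatives 1.81e-06 to 0.122), and so was the combination.

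For NCAPH the effect differed by -1.07 (SE 0.16, limma adjusted p 0.000778) and for NCAPH2 by 1.32 (SE 0.19, limma adjusted p 0.000671). The kleisins of the 2 complexes thus moved in opposite directions between the phases, and NCAPH minus NCAPH2 was -2.39 on the log2 scale (-2.34 and -2.44 in replicates 1 and 2). NCAPH2 was lower in the IP in both phases, less so in mitosis, and SCO2 beside it changed in the same direction, by 1.81. With the length and GC trends taken off, the difference of NCAPH2 was 0.59 (adjusted p 0.0254, range 0.000312 to 0.0254). SMC4 differed by -1.05 (SE 0.29, limma adjusted p 0.0173). Its call was lost without the second interphase library lacking IP (-0.83, adjusted p 0.0649) or without the second mitotic library lacking IP (-0.94, adjusted p 0.0565). With the trends taken off it was -0.48 (adjusted p 0.169), and its adjusted p ran from 0.00375 to 0.172 over the alternatives.

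The G and D subunits did not pass the interaction test. For NCAPG2 the difference was 0.44 with a 95% interval of 0.06 to 0.82 (limma adjusted p 0.0555). Without the first interphase IP library it was 0.59 (adjusted p 0.0144), and the range over the alternatives was 0.00139 to 0.179. For NCAPG it was 0.20 with an interval of -0.19 to 0.59 (limma adjusted p 0.377). With the length and GC trends taken off, the differences were 0.92 (adjusted p 0.00373) for NCAPG2 and 0.69 (adjusted p 0.0122, range 0.00578 to 0.866) for NCAPG. For NCAPD3 it was -0.47 with an interval of -0.98 to 0.04 (limma adjusted p 0.118), and -0.69 without the second mitotic IP library (adjusted p 0.0238, range 0.0238 to 0.501). For NCAPD2 it was -0.15 with an interval of -0.55 to 0.26 (limma adjusted p 0.535).

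Within the precipitated RNA, mitosis was also compared with interphase. This comparison shares its libraries with those of the IP, so its values are set beside them and not counted as further support. Limma called 7 of the 8 members, 6 higher and 1 lower in mitosis. Of all genes 61.4% were called, 35.8% higher and 25.6% lower. Mitotic libraries lay above interphase ones for 7 members and below for 1, against 44.6% and 34.6% of all genes. NCAPG had a log2 fold change of 2.27 (SE 0.12, limma adjusted p 2.13e-06), from 34.0 and 30.8 FPKM to 155 and 164 FPKM. NCAPG2 had 1.76, NCAPH2 1.64 and NCAPD2 1.36. SMC4 had 0.89, from 77.5 and 78.9 FPKM to 119 and 179 FPKM. SMC2 fell from 23.7 and 22.1 to 17.3 and 17.8 FPKM, a log2 fold change of -0.37 (limma adjusted p 0.0320). NCAPH, at 5.15 and 4.56 FPKM in interphase and 5.26 and 5.65 FPKM in mitosis, had 0.14 with a 95% interval of -0.11 to 0.40 (limma adjusted p 0.296).

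The call of SMC2 in this comparison was lost without any 1 of the 4 IP libraries, while its log2 fold change stayed between -0.41 and -0.32. Without the first or the second interphase IP library its limma adjusted p was 0.125 and 0.0593, and without the first or the second mitotic IP library 0.106 and 0.0778. With the trends taken off its log2 fold change was -0.01 (adjusted p 0.964, range over the alternatives 0.00746 to 0.964). NCAPD3 had a log2 fold change of 0.47 (limma adjusted p 0.0275). It missed the threshold without the first interphase IP library (0.42, adjusted p 0.112), the second interphase IP library (0.53, adjusted p 0.0593) or the second mitotic IP library (0.25, adjusted p 0.191, range over the alternatives 0.00146 to 0.191). Quantile normalization (0.34, adjusted p 0.0972) and median centring (0.37, adjusted p 0.0760) ended the call too.

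Ratios of subunit genes within a library do not depend on scaling between libraries, but they still carry the trends on length and GC content. SMC4 was 3.17 and 3.03 times SMC2 in interphase without IP, 3.27 and 3.57 times in the interphase IP, and 2.80 and 3.42 times in mitosis without IP. In the mitotic IP it was 6.87 and 10.1 times SMC2, above all other libraries. NCAPH was 0.374 and 0.364 times NCAPH2 in interphase without IP and 2.18 and 2.49 times in the interphase IP. In mitosis it was 0.814 and 0.713 times NCAPH2 without IP and 0.668 and 0.602 times in the IP. The interphase IP was therefore the only group with more NCAPH than NCAPH2 in both libraries. With the trends taken off, the interphase IP effect of NCAPH2 was -0.71 instead of -2.09, and that of NCAPH 0.04 instead of 0.10. Ratios were not computed with the trends taken off.

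NCAPG was 0.847 and 0.747 times NCAPG2 in interphase without IP and 1.36 and 1.37 times in mitosis without IP, so the order of the G subunits turned between phases. In the IP the ratio was 0.664 and 0.736 in interphase and 0.964 and 1.05 in mitosis. NCAPD2 exceeded NCAPD3 in all 8 libraries, by 2.50-fold (second interphase IP library) to 5.34-fold (first mitotic IP library).

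**Figure D4:**
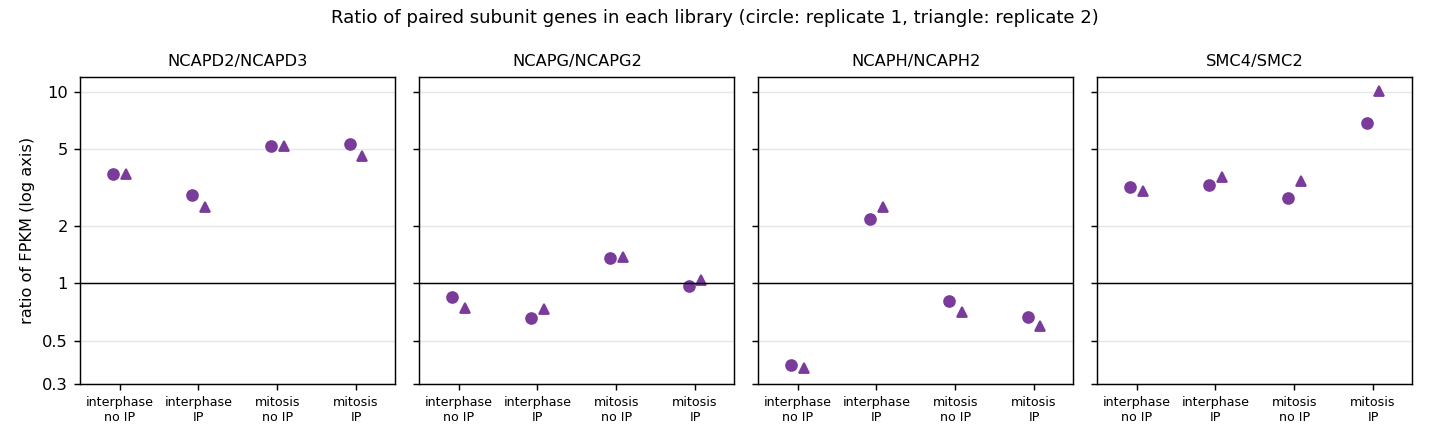
Ratio of FPKM (log axis) between paired subunit genes in each of the 8 libraries, in 4 groups along the horizontal axis; circles and triangles are replicates 1 and 2, and the line marks a ratio of 1. SMC4/SMC2 stays between 2.80 and 3.57 in 6 libraries and is 6.87 and 10.1 in the mitotic IP, and NCAPH/NCAPH2 is above 1 only in the interphase IP.

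Over all genes the effect of the IP varied with base composition and transcript length, so these were set beside the members. The longest annotated transcripts of SMC4, SMC2, NCAPG and NCAPG2 had GC contents of 37.3%, 37.6%, 39.0% and 41.4%. Those of NCAPH and NCAPD3 had 47.6% and 48.6%, that of NCAPD2 52.5% and that of NCAPH2 62.2%. Lengths were 2077 nt for NCAPH2 and 2952 nt for NCAPH, and between 4661 nt (NCAPG) and 5992 nt (SMC2) for the rest. In interphase the members' log2 fold changes were lower at higher GC content (Spearman's rho -0.90 over 8 genes from the same libraries), as were those of all genes (-0.71 over 13119 genes). Genes were divided by GC content into 5 equal classes. The class with the lowest GC content had a median of 1.00 with quartiles of 0.45 and 1.46, and SMC2 and SMC4 lay above its upper quartile. NCAPG2 (1.27), NCAPD3 (0.57) and NCAPD2 (0.19) also lay above the upper quartiles of their classes, which were 1.04, 0.54 and -0.05. The class with the highest had a median of -1.15 with quartiles of -1.82 and -0.52, and NCAPH2 lay below its lower quartile.

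With smooth trends on length and GC content taken off, 2 of the 8 members kept an interphase call, SMC4 (0.54, adjusted p 0.0332) and NCAPH2 (-0.71, adjusted p 0.00115). Of 13119 genes, 3450 were called higher and 4431 lower at this setting. The log2 fold change of SMC2 shrank from 1.57 to 0.26 (adjusted p 0.122), that of NCAPG from 1.08 to 0.03 (adjusted p 0.863), that of NCAPG2 from 1.27 to 0.32 (adjusted p 0.0539) and that of NCAPD3 from 0.57 to 0.18 (adjusted p 0.320). Over the 16 alternatives these p-values ran from 1.72e-05 to 0.0369 for SMC4, 4.31e-07 to 0.00115 for NCAPH2, 1.81e-06 to 0.122 for SMC2, 1.25e-05 to 0.863 for NCAPG, and 4.11e-06 to 0.0539 for NCAPG2.

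The mitotic effects followed composition less closely (rho -0.43 over the 8 members and -0.56 over all genes). SMC2, in the class with the lowest GC content, lay under its lower quartile of 0.09, and NCAPG lay above its upper quartile of 1.14. NCAPG2, at 1.72, lay above the upper quartile of 0.86 of the next class. With the trends taken off, SMC2 was at -1.35 (adjusted p 4.69e-05, range 1.91e-05 to 0.0139), NCAPH at -1.06, NCAPG2 at 1.25 and NCAPG at 0.72. All 4 kept their calls, and of 13119 genes 4229 were called higher and 3907 lower. The change of the SMC2 effect between phases was then -1.61 (adjusted p 0.000360, range 2.94e-05 to 0.000569).

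**Figure D5:**
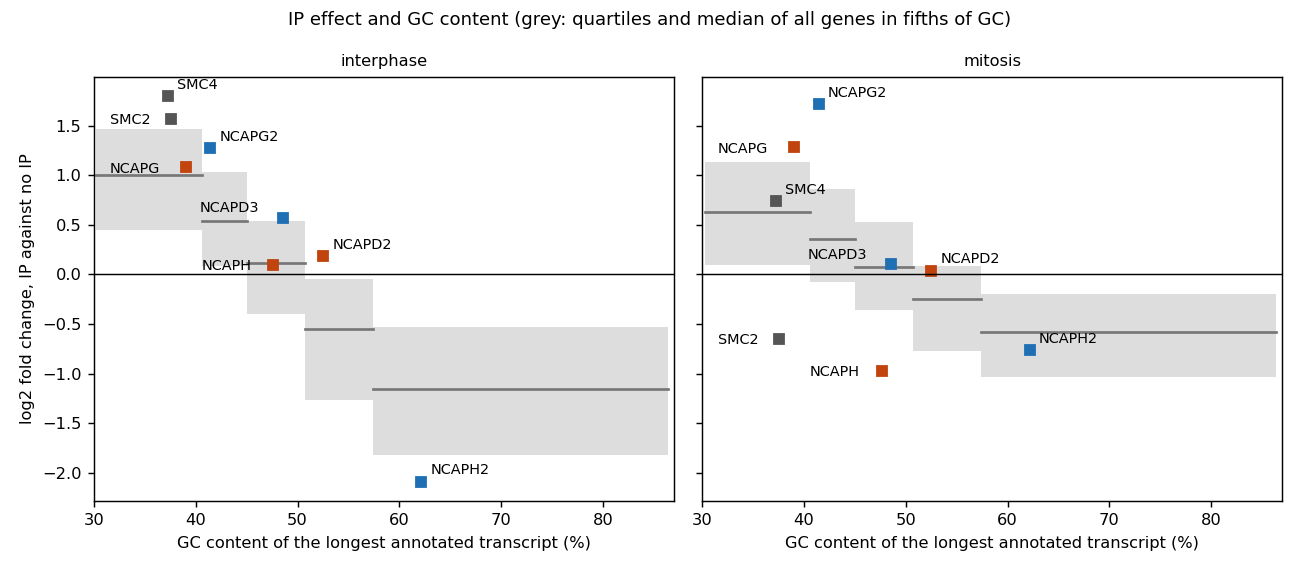
Log2 fold change of hnRNP U IP against no IP plotted on the GC content (%) of the longest annotated transcript, in interphase and in mitosis; squares are the members, and grey boxes and lines are the quartiles and medians of all genes in 5 classes of GC content. In interphase SMC2, SMC4, NCAPG2, NCAPD3 and NCAPD2 lie above the boxes of their classes and NCAPH2 below, and in mitosis SMC2 and NCAPH lie under them while NCAPG and NCAPG2 lie above them.

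For each member the gene of most similar pattern was sought among 8924 others with a mean of at least 1 FPKM and an interval of their own. The measure was the root mean square (RMS) difference of log2(FPKM + 1) over the 8 libraries, each gene's own mean taken off. For SMC2 it was SGOL1 (older symbol of shugoshin 1, a protector of centromeric cohesion), at 0.14, beside a median of 0.85 over all candidates. SGOL1 had 17.9 and 18.0 FPKM in the interphase IP, 27.9 and 28.2 FPKM in mitosis without IP and 16.3 and 18.0 FPKM in the mitotic IP. For SMC4 it was GAS2L3, at 0.16. In condensin I the nearest genes were EWSR1 for NCAPD2 (0.07), ATL2 for NCAPG (0.14) and SAP130 for NCAPH (0.09). In condensin II they were TTC17 for NCAPD3 (0.11), SACM1L for NCAPG2 (0.08) and MPV17L2 for NCAPH2 (0.12).

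Distances between members were taken in the same way. NCAPG and NCAPG2 were each other's nearest member, at 0.36, and NCAPD2 and NCAPD3 likewise, at 0.39, so in both cases the counterpart in the other complex was nearer than any subunit of the same complex. NCAPH was nearest to NCAPD3 (0.44), SMC2 to NCAPD3 (0.48) and SMC4 to NCAPG2 (0.44). NCAPH2 was 0.79 from its nearest member NCAPH. The share of candidates nearer to a member than its nearest fellow member was 0.459% for NCAPG, 1.42% for NCAPG2, 1.85% for SMC4, 2.87% for SMC2 and 2.91% for NCAPD2. It was 9.39% for NCAPH, 13.7% for NCAPD3 and 30.6% for NCAPH2.

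Related genes were described from lists of 16 regulators and axis partners of condensin and 5 other SMC ATPases. Without IP, 13 of the 16 regulators were called higher in mitosis and 0 lower, with a median log2 fold change of 1.11, beside 26.2% and 25.5% of all genes. The largest was that of MKI67, which coats mitotic chromosomes, at 2.93 (8.68 ± 0.190 to 72.9 ± 10.6 FPKM, mean ± SD, n = 2). The smallest was that of PPP2R1A, a scaffold of phosphatase PP2A, at -0.27, not called, though it was called lower after median centring or removal of the trends. In the interphase IP 8 were called higher and 5 lower, from -1.69 for PPP2R1A to 1.93 for the checkpoint kinase gene TTK, beside 37.6% and 37.0% of all genes. After removal of the trends 5 were higher and 6 lower, beside 3450 and 4431 of 13119 genes. In the mitotic IP 5 were higher and 7 lower (5 and 10 without the trends), from -1.94 for KIF4A, a motor of the chromosome axis, to 2.07 for TTK, beside 32.8% and 31.7% of all genes. The interaction called 3 higher and 6 lower (5 and 5 without the trends), beside 27.2% and 19.9% of all genes, from -2.64 for MKI67 to 0.96 for CDK1, the mitotic kinase that phosphorylates condensin. In the IP 11 were higher in mitosis and 1 lower (13 and 1 without the trends), beside 35.8% and 25.6% of all genes. Log2 fold changes ran from -1.13 for TOP2B, a DNA topoisomerase, to 2.93 for TTK. Without the trends, 4229 of 13119 genes were called higher and 3907 lower in the mitotic IP. By the interaction these were 3578 and 2189, and between phases within the IP 4890 and 3425.

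The other SMC genes were SMC1A and SMC3 of cohesin, SMC5 and SMC6 of their own repair complex, and the chromatin protein gene SMCHD1. All 5 were called higher in the interphase IP, as were 37.6% of all genes, from 0.99 for SMC1A to 1.95 for SMC5, as SMC2 and SMC4 were. After removal of length and GC trends 1 of the 5, SMC5, was, beside 3450 of 13119 genes. In the mitotic IP SMC1A (-0.53) and SMC3 (-1.11) were lower, as SMC2 was, and SMCHD1 (1.26) was higher, beside 31.7% and 32.8% of all genes. Without the trends SMC5 and SMC6 were called lower there too, at a setting where 3907 of 13119 genes were lower. The effect of the IP was lower in mitosis for 4 of the 5, with SMC3 at -2.14 beside -2.22 for SMC2. All but SMCHD1 were thus called lower, as were 19.9% of all genes. These 4 calls held under quantile normalization, median centring and removal of the trends, whereas SMCHD1 was then called higher under the last. Under the last, 2189 of 13119 genes were called lower and 3578 higher. Without IP all 5 were higher in mitosis, as were 26.2% of all genes, from 0.53 for SMC6 to 1.25 for SMC3. The call of SMC6 was lost without the trends, where 3543 of 13119 genes were higher. Within the IP 4 were lower in mitosis, from -1.28 for SMC6, and SMCHD1 was higher at 0.81, beside 25.6% and 35.8% of all genes. Without the trends 3 were lower there, beside 3425 of 13119 genes, SMC1A no longer being called.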

How the data were processed

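The authors deposited a gene table on build hg38 with an FPKM value per library, per the file headers. TopHat and StringTie are named in the submitters' processing notes without roles. How reads shared between genes were treated is not given in the sources used here. The deposited ratio columns were made by the authors as quotients of FPKM values of 1 replicate number. Recomputed quotients equalled them throughout (relative tolerance 1e-06). The lncRNA table on hg19 was not used, since its identifiers name no gene. Tests were made in R 4.3.3 on log2(FPKM + 1) values, using lmFit and a trended eBayes from limma 3.58.1. All 8 libraries and 13471 genes entered, as 4 group means without a replicate block or a filter on low values, which left 4 residual degrees of freedom. Fold changes on this scale understate changes of low genes. P-values were adjusted over all genes in each of 5 comparisons, with calls made where the adjusted p was under 0.05. Genes were matched to GENCODE release 29 by symbol (12678) or older symbol (441). The trends on length and GC content of the longest transcript were fitted per library with mgcv (version 1.9.3). The depth per library is unknown, so no interval for counting error is given. The code was tested on simulated data. Named genes are the members, the genes nearest in pattern, and the extremes of the related lists. The members and lists were chosen with earlier results of these data known. Alternatives were pseudocounts of 0.1 and 0.01, a mean FPKM of at least 1, quantile normalization, median centring, the replicate block, removal of the trends with and without the block, and leaving out each library.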

Additional observations from a re-analysis of the deposited data

Results flagged for a closer look

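The effect of the IP differed between interphase and mitosis, by the interaction test in limma, for 4 members, and each is listed for that reason. Of all genes, 47.1% were called by the same test. SMC2 had a difference of -2.22 (adjusted p 6.95e-05), NCAPH of -1.07 (adjusted p 0.000778), SMC4 of -1.05 (adjusted p 0.0173) and NCAPH2 of 1.32 (adjusted p 0.000671). SMC2 and NCAPH have intervals of their own in the file, while SMC4 shares its interval with IFT80 (difference -0.15) and NCAPH2 with SCO2 (difference 1.81). The share of reads in common was not tested. Groups of 2 libraries are too small for a check on outlying samples.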

How the results depend on the processing

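Over the 40 member values, the pseudocounts and the filter on mean FPKM left direction and side of the threshold as they were for 40, median centring for 39, quantile normalization for 37 and removal of length and GC trends for 28. Of 320 values with 1 library left out, 301 stayed so. The cause of the changes was not tested. With the trends removed, 2 members instead of 6 were called for the IP in interphase (3 once the block was added). Of 13119 genes, 3450 were then called higher and 4431 lower (3695 and 4644 with the block). In the main fit these were 5068 and 4983 of 13471 genes. In the main fit condensin I minus condensin II was 0.54 (interphase IP), -0.24 (mitotic IP) and -0.77 (difference between phases). It was 0.74 for mitosis against interphase without IP and -0.033 within the IP. With the trends removed, with or without the block, these were 0.15, -0.43, -0.59, 0.64 and 0.052, the last a change of sign. At pseudocounts of 0.1 and 0.01 these were 0.65 and 0.67, -0.26 and -0.26, -0.91 and -0.93, 0.77 and 0.77, and -0.14 and -0.16. Quantile normalization gave -0.31 in the mitotic IP and 0.77 without IP. Leaving out 1 library gave -0.27 to -0.20 in the mitotic IP, 0.71 to 0.77 without IP and, within the IP, -0.067 to 0.0015, above 0 without the second mitotic IP library. In the mitotic IP the uncalled NCAPD2 turned to -0.18 under quantile normalization and ran from -0.089 to 0.17 with 1 library left out. The uncalled NCAPD3 turned to -0.0058 with the trends removed, with or without the block, and ran from -0.12 to 0.32. Median centring moved the median of all genes in the interphase IP from 0.02 to 0.14 and within the IP from 0.08 to -0.03.

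Replicate numbers are not stated to mark shared cultures, and deviations of same-numbered libraries correlated at 0.0883 to 0.528. With the replicate block, members called for the difference between phases went from 4 to 6. NCAPD3 (-0.47, limma adjusted p 0.0447, range over alternatives 0.0238 to 0.501) and NCAPG2 (0.44, limma adjusted p 0.0332, range 0.00139 to 0.179) were added, and no other member call changed. Among all 13471 genes, those called higher went from 3662 to 3988 and those called lower from 2677 to 2925.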
